A study of Mus musculus with 6 samples.

Results

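Molecular chaperones are proteins that help other proteins fold, keep unfolded chains from sticking together and pass damaged ones on for degradation. The genes described here are those of the heat shock protein families, the J proteins that drive Hsp70, the chaperonin and prefoldin complexes, the folding enzymes and stress sensors of the endoplasmic reticulum (ER), and the Bag and FK506-binding (Fkbp) partner proteins. They were taken by gene symbol alone, by a pattern applied to the array's annotation, with no use of measured values. The pattern took 122 of 16281 probes, which represent 95 genes. Of these, 86 genes had a probe with a value on all 6 arrays and were tested, 7 were measured on some arrays, and 2 (Bag5 and Hspg2) were listed at exactly 0 on every array. Hspg2 encodes a matrix proteoglycan, not a chaperone, and came in through the spelling of its symbol. Another 3 probes, whose annotation joins Atf6b to neighbouring genes, were left out, and Hsf1, Atf6 and Hsp90ab1 were not analysed here.

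The cytosolic heat shock response is driven by heat shock factors, which bind heat shock elements in the promoters of Hsp70, Hsp90 and their partners when unfolded proteins accumulate. The ER has its own unfolded protein response, in which the sensors Ire1 (Ern1), Perk and Atf6 raise the transcription of ER chaperones, partly through the factor Xbp1, and raise the capacity to degrade misfolded proteins. A macrophage that receives a bacterial signal begins to make large amounts of secreted and surface proteins, which pass through the ER.

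Total RNA came from RAW 264.7 cells, a mouse macrophage line established from a virus-induced tumour (written RAW 264.4 in part of the labels). Untreated cells were compared with cells that had received lipopolysaccharide (LPS, 100 ng/ml) together with LPS-binding protein (LBP, 100 pM), both cultured for 4 h. No allele, deletion or other agent is named for either group, and LPS was not given without LBP. Both RNAs, in different dyes, shared each of the 6 arrays: treated RNA was in Cy5 on 3 arrays and in Cy3 on the other 3, and the labels number them as sets 1 to 3 in each orientation.

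Every value below is a log2 ratio of treated over untreated RNA, where 1 unit is a doubling. The sign was turned for the arrays whose Cy3 channel held treated RNA, both arrays of a set were averaged to 1 set value, and means are given ± SD over n = 3 sets. A gene is called where its adjusted p from limma, with Benjamini-Hochberg adjustment over 11364 features, was below 0.05. The direction is the likely one: it takes the deposited ratio as Cy5 over Cy3, since the labels name Cy5 the test channel, and all signs would flip if the authors had divided the other way. On this reading the inflammatory cytokine genes Il1b (4.17 ± 0.055) and Tnf (2.08 ± 0.18) were higher in treated RNA. Arrays held between 14195 and 15027 values other than 0, and between 109 and 118 of them belonged to chaperone probes. A table of ratios gives no level of any RNA, so the macrophage identity of the cells could not be checked. Of 10 macrophage markers 9 were tested, and 4 rose and 2 fell (-0.59 to 1.10). Of 12 markers of other cell types 10 were tested, and 1 (Cd4, 0.23) rose. Over all features, 14.0% rose and 15.0% fell. The part of either list in the results below was not tested. Separate cultures for the sets are not mentioned in the labels, so the p-values rest on a spread between samples that may be only technical. In sets 1 and 2 the arrays deviated from their orientation means in opposite directions (r across features of -0.48 and -0.51). Their average then varies less than single arrays do, so the SDs and p-values given here may be too small. With the 6 arrays counted as separate samples, 1203 features were called higher and 1264 lower, against 1586 and 1708.

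Chaperone genes changed little. Of the 86 tested, 4 rose, 11 fell and 71 were not called. The called share was 17.4%, against 29.0% of all features tested. By direction, 4.65% rose against 14.0% of all features, and 12.8% fell against 15.0%. No chaperone gene reached a size of 0.5, which 6.34% of all features did, and 2.03% of all features were called with at least a 2-fold change. Sizes under 0.1 were found for 58 of the 86 (67.4%, against 56.7% of all features). The median over the 86 genes was 0.0093 and that over all features 7.87e-04. The largest rise was 1.38-fold, in Herpud1, and the largest fall 1.32-fold, in Fkbp1b. An unadjusted p below 0.05 was found for 20 genes (23.3%, against 38.4% of all features). The same sign on all 6 arrays was found for 14 genes (16.3%, against 25.7% of all features), of which 13 were called (22.2% of all features were called with the same sign throughout). Because whole cultures were compared, a change in every cell and a change in some cells cannot be told apart.

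**Figure D1:**
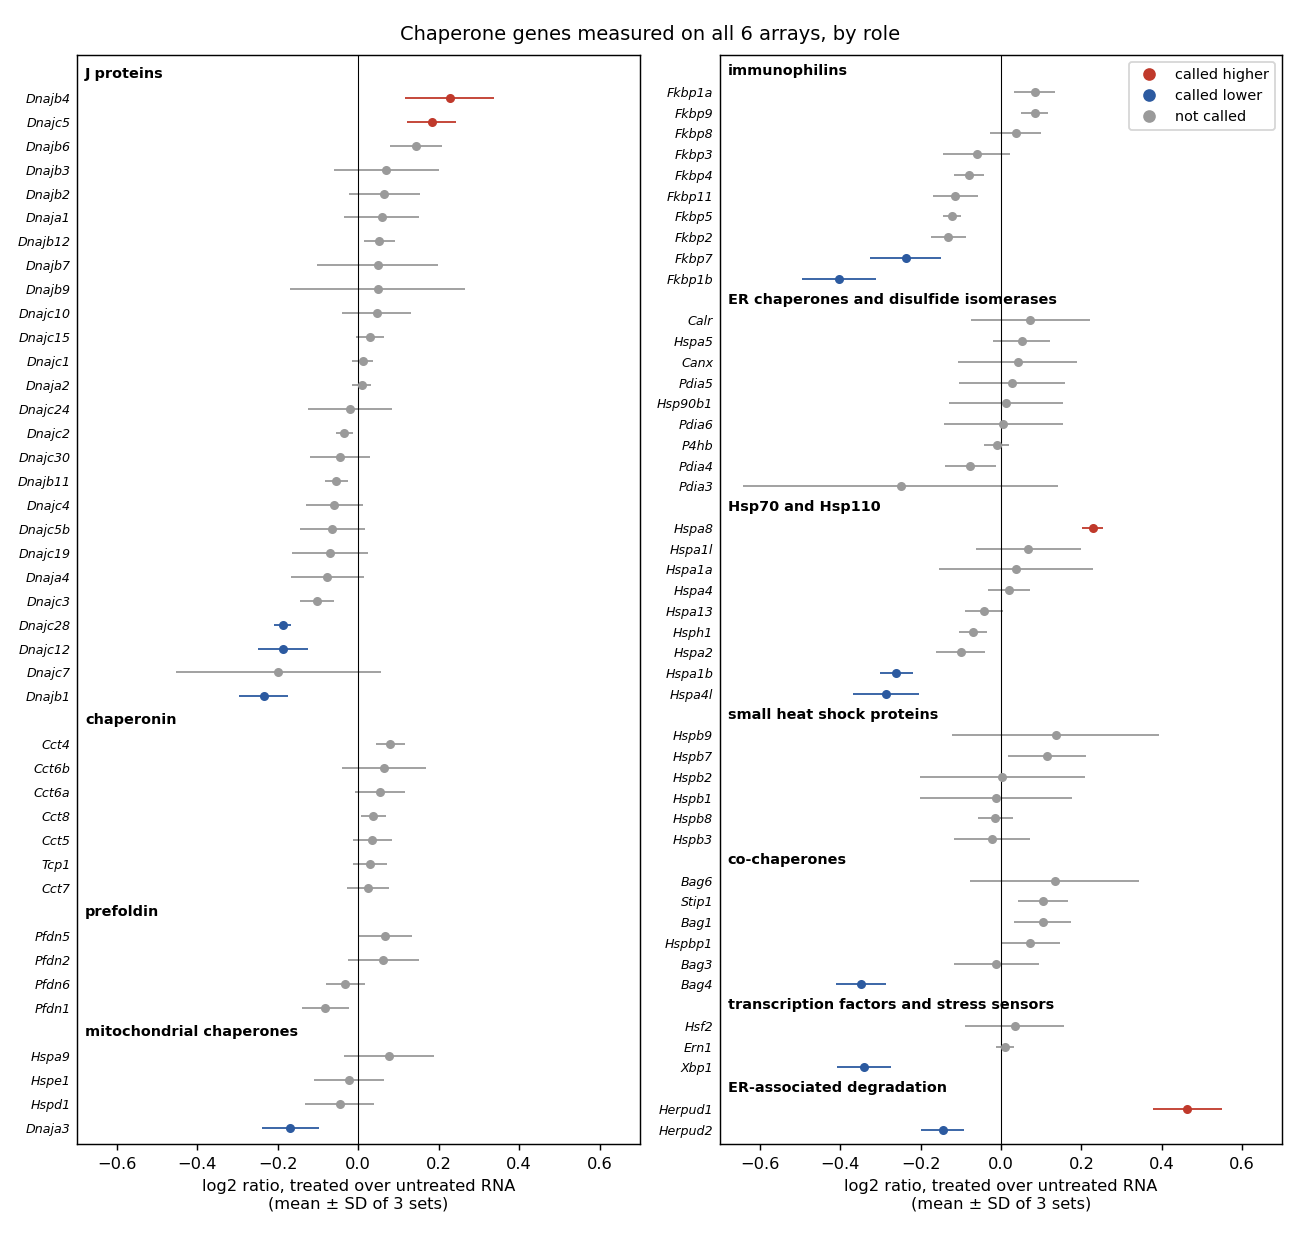
Log2 ratios (treated over untreated RNA, horizontal axis) of the 86 chaperone genes measured on all 6 arrays, grouped by role. Points are means and bars the SD of 3 sets; red genes were called higher, blue ones lower and grey ones not called. Most points lie within 0.1 of 0, with Herpud1 (0.46) at the right and Fkbp1b (-0.40) at the left end.

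**Figure D2:**
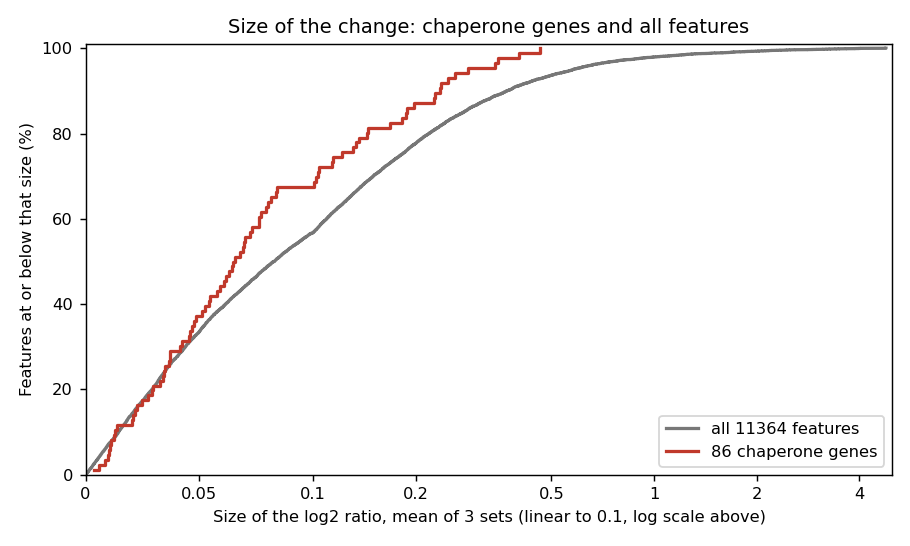
Cumulative share (vertical axis, percent) of features at or below a given size of the log2 ratio (horizontal axis, linear to 0.1 and logarithmic above), for the 86 chaperone genes (red) and all 11364 features (grey). The red curve ends at 0.46, whereas the grey curve runs on to 4.79.

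Among the stress sensors and transcription factors, Xbp1 fell. Xbp1 is the factor whose RNA Ire1 splices to start one arm of the ER stress response. The gene was at -0.40, -0.39 and -0.51 on the arrays with treated RNA in Cy5 and at -0.19, -0.23 and -0.32 on those with treated RNA in Cy3. All 6 values lay below 0, and the Cy5 arrays were lower than the Cy3 arrays without overlap. The mean was -0.34 ± 0.067 (limma adjusted p = 0.0012), and both probes of the gene were called, at -0.35 and -0.33. A ratio over the whole transcript does not separate the spliced from the unspliced form. The sensor gene Ern1 itself was at 0.010 ± 0.022 and was not called. Neither was Hsf2, a heat shock factor active outside classical heat shock, at 0.034 ± 0.12.

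Herpud1 had the largest rise in the set. Its product sits in the ER membrane and helps to organise the machinery that sends misfolded proteins out for degradation. On the arrays with treated RNA in Cy5 it was at 0.39, 0.37 and 0.24, and with treated RNA in Cy3 at 0.67, 0.63 and 0.49. All 6 arrays were above 0, with the Cy3 arrays higher throughout. The mean was 0.46 ± 0.085 (limma adjusted p = 3.42e-04). A second probe of the gene, left out because 1 array was listed at 0, gave 0.38 in set 1 and 0.26 in set 3, with its Cy5 arrays below 0 (-0.20, -0.25 and -0.0082) and its Cy3 arrays above (0.97 and 0.52). With exact zeros kept as values, that probe entered and the call ended (0.32, limma adjusted p = 0.080). The paralog Herpud2 went the other way at -0.14 ± 0.054 (limma adjusted p = 0.0456). Its values ran from -0.46 to 0.11 over the arrays, 5 of them below 0. That call was among the least stable, since it passed under only 4 of 14 alternative settings and ended without set 1 (limma adjusted p = 0.211) or set 2 (0.186).

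No ER chaperone or disulfide isomerase was called: 0 of 9 passed in limma, and 0 had an unadjusted p below 0.05. Over all features these shares were 29.0% and 38.4%, and whether so small a group differs from them was not tested. Hspa5 (BiP), the Hsp70 of the ER and the usual readout of its stress response, was at 0.030, -0.14 and -0.22 on the Cy5 arrays and at 0.22, 0.23 and 0.19 on the Cy3 arrays. The orientations did not overlap and lay mostly on opposite sides of 0. Their mean was 0.051 ± 0.071 (limma adjusted p = 0.476). On the Cy3 arrays alone it was called higher (0.21, limma adjusted p = 0.0495). The Hsp90 of the ER, Hsp90b1, was at 0.013 ± 0.14. The lectin chaperones, which hold glycoproteins during folding, were at 0.042 ± 0.15 (Canx) and 0.072 ± 0.15 (Calr, over 3 probes between 0.054 and 0.091). Among the isomerases, which form and rearrange disulfide bonds, P4hb (-0.010 ± 0.031), Pdia6 (0.0061 ± 0.15), Pdia4 (-0.076 ± 0.063) and Pdia5 (0.028 ± 0.13) were close to 0.

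Pdia3, which works with the lectin chaperones on glycoproteins, had the largest SD over set values of the 86 genes (over single arrays Hspb1 ranged more widely). Set 1 was at -0.69, set 2 at -0.13 and set 3 at 0.067, which gave -0.25 ± 0.39 (limma adjusted p = 0.198). The low value came from both arrays of set 1 (-0.66 and -0.71). Without set 2 it was called lower (-0.31, limma adjusted p = 0.00268), although the 2 sets left had opposite signs. In a fit to 2 sets limma's p leans mostly on the spread pooled over features, and hardly on that of Pdia3 itself. With the set as a fixed replicate block it was also called lower (limma adjusted p = 0.0278). The J proteins of the ER lumen were not called either. Dnajb9, which restrains Ire1 through Hspa5, was at 0.048 ± 0.22, and Dnajc3, another Hspa5 partner, at -0.10 ± 0.042. Dnajb11 was at -0.054 ± 0.029 and Dnajc10, a disulfide reductase, at 0.046 ± 0.085. Dnajb9 was called higher without set 3 (0.17, limma adjusted p = 0.0482).

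**Figure D3:**
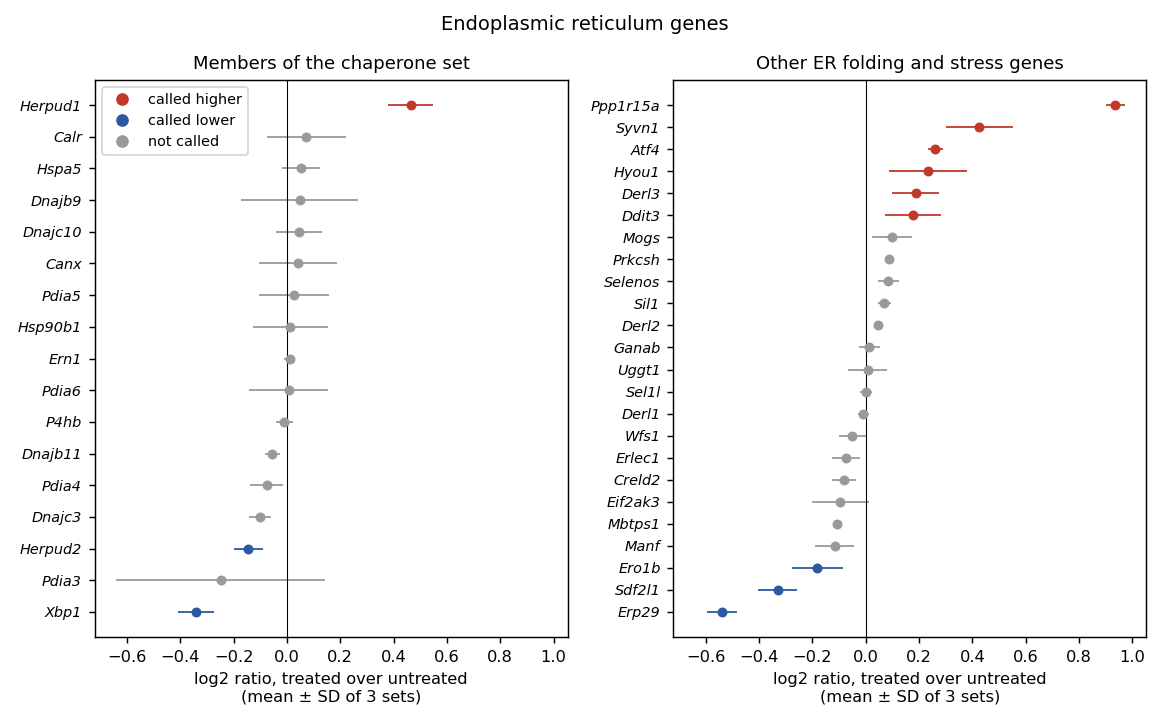
Log2 ratios (treated over untreated RNA, horizontal axis) of ER members of the chaperone set (left) and of 24 other ER folding and stress genes (right). Points are means and bars the SD of 3 sets, coloured by call; on the left the ER chaperones cluster around 0 between Herpud1 and Xbp1, and on the right Ppp1r15a (0.94) and Erp29 (-0.54) are the extremes.

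Other ER folding and stress genes, taken from a list of 32 of which 24 were tested, showed 6 rises and 3 falls (median 0.010). Of all features, 14.0% rose and 15.0% fell, and whether the list differs from them was not tested. Syvn1, the ubiquitin ligase at the centre of ER-associated degradation, rose by 0.43 ± 0.13, and Derl3, a channel component of the same machinery, by 0.19 ± 0.087. Sel1l, the adaptor of Syvn1, was at -9.50e-06 ± 0.022 and Derl1 at -0.0095 ± 0.021, neither of them called. Among genes linked to the Perk arm, the phosphatase subunit gene Ppp1r15a rose by 0.94 ± 0.035, Atf4 by 0.26 ± 0.029 and Ddit3 by 0.18 ± 0.10. The Perk gene itself, Eif2ak3, was at -0.095 ± 0.11 and not called (limma adjusted p = 0.236). Whether Perk signalling changed was not tested. The ER chaperone gene Hyou1 rose by 0.23 ± 0.15. Erp29, a luminal isomerase-like protein, fell to -0.54 ± 0.055, Sdf2l1, a partner of Hspa5, to -0.33 ± 0.073 and the oxidase gene Ero1b to -0.18 ± 0.096. Limma adjusted p for the 9 called genes of the list ran from 4.96e-06 (Ppp1r15a) to 0.0390 (Ddit3).

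The ER members can be set beside the stress elements of their promoters. RefSeq start sites on GRCm38.p6 were matched for 82 of the 95 genes (104 promoters), each as 250 bases before and 50 after the start, and searched on both strands. The ER stress response element, CCAAT and CCACG with 9 bases between them, was present in 6 of these promoters, against 0.119% of all 32851 promoters. It was found for Hspa5, Calr, Hsp90b1 (at 2 places), Canx, Pdia6 and Dnajc3. None of these 6 genes was called, and their ratios ran from -0.10 to 0.072. The elements are shown because the genes that carry them are those near 0. Each is written on the strand that spells CCAAT first, with 5 bases on either side and the fixed letters in capitals.
Hspa5, chr2:34772020-34772048 (+): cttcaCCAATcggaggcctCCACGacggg
Calr, chr8:84847070-84847098 (+): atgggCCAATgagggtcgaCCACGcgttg
Hsp90b1, chr10:86705633-86705661 (-): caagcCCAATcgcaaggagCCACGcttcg
Hsp90b1, chr10:86705528-86705556 (+): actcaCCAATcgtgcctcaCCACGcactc
Canx, chr11:50325795-50325823 (-): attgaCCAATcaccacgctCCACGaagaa
Pdia6, chr12:17266486-17266514 (+): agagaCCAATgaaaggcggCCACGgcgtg
Dnajc3, chr14:118937822-118937850 (+): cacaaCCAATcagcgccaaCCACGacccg

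The shorter variant, ER stress response element II (ATTGG and CCACG with 1 base between them), was in 2 of the 104 promoters, against 0.0365% of all. It was found for Herpud1, which rose (0.46), and for Dnajb11, which was at -0.054 and not called. In Herpud1 it began 52 bases before the start site and in Dnajb11 at base 8 of the transcript. The pair is shown with the same layout.
Herpud1, chr8:94386372-94386392 (+): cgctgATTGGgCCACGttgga
Dnajb11, chr16:22857847-22857867 (+): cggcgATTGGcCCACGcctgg

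The 250 bases before the start sites of Herpud1 and Hspa5 follow, to show a holder of the short element that was called and a holder of the long one that was not. Capitals mark the whole matched element, the short variant in Herpud1 and the long one in Hspa5.
Herpud1, chr8:94386179-94386428 (+): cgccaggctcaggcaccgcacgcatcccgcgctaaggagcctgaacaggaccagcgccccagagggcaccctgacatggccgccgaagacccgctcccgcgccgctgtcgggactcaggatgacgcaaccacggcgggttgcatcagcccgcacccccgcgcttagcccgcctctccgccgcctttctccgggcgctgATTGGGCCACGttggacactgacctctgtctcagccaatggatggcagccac
Hspa5, chr2:34771840-34772089 (+): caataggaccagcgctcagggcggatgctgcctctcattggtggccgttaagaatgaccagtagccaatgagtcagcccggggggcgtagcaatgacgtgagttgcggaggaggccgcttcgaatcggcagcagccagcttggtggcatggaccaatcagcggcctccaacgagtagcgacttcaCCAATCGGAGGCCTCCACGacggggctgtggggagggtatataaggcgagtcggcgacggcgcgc

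A match describes letters in this window and shows neither binding nor a cause of any change. The promoter of Xbp1 held none of the motifs searched, which says only that these letters are not there. Of the others searched, the core of the unfolded protein response element (TGACGTGG, in 0.676% of all promoters) was found for 1 gene, Fkbp1b, which fell. The cAMP response element (TGACGTCA), the NF-κB site (GGGA and TTTCC with C or A between them) and the interferon response element (GAAA repeated after 2 bases) were in 0 of the 104 promoters, against 1.79%, 0.244% and 3.44% of all.

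In the cytosol, Hspa8 rose and Hspa4l and Hspa1b fell. Hspa8, the constitutive Hsp70 that folds new proteins and uncoats clathrin vesicles, was at 0.21, 0.069 and 0.13 on the Cy5 arrays and at 0.26, 0.43 and 0.27 on the Cy3 arrays. All were above 0, and the Cy3 arrays were the higher ones. The mean was 0.23 ± 0.026 (limma adjusted p = 0.00531). It missed the threshold on the Cy5 arrays alone (0.13, limma adjusted p = 0.203) and with the set as a fixed replicate block (limma adjusted p = 0.0868).

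Hspa4l, a large Hsp70 relative that exchanges nucleotide on Hsp70, was at -0.26, -0.42 and -0.45 (Cy5) and at -0.15, -0.16 and -0.28 (Cy3). Every array was below 0. It fell to -0.29 ± 0.082 (limma adjusted p = 0.0036). Its relatives Hsph1 (-0.070 ± 0.035) and Hspa4 (0.021 ± 0.052) were not called.

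The stress-inducible Hsp70 genes Hspa1a and Hspa1b are near-identical copies, so a probe of one may bind RNA of the other. Hspa1b was at -0.20, -0.50 and -0.25 (Cy5) and at -0.26, -0.11 and -0.22 (Cy3), a mean of -0.26 ± 0.040 (limma adjusted p = 0.00328). All 6 arrays of that probe were below 0. A second probe of Hspa1b, at 0 on 1 array, disagreed: it gave -0.13 in set 2 and 0.24 in set 3, and 1.61 on its only array of set 1. Once probes with 2 complete sets were admitted, the gene was at -0.15 and not called (limma adjusted p = 0.102), and with exact zeros kept it was at 0.022 (limma adjusted p = 0.972). Hspa1a was at 0.28, 0.49 and -0.16 (Cy5) and at -0.049, -0.13 and -0.21 (Cy3), on both sides of 0, with a mean of 0.037 ± 0.19 (limma adjusted p = 0.754). Hspa2, an Hsp70 best known from germ cells, was at -0.10 ± 0.061 and not called.

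Hspa14, a ribosome-associated Hsp70, was listed at 0 on both arrays of set 1 and was not among the 86. In the other sets it was at -0.36 and -0.29, and limma called it lower once features with 2 complete sets were admitted (-0.32, adjusted p = 0.00699). Hsp90aa1, the inducible cytosolic Hsp90, had a value on only 3 of its 12 probe and array combinations and no complete set (-0.12, -0.025 and 0.12, all on Cy5 arrays), so it was not tested.

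J proteins, which bring substrates to Hsp70 and start its ATP cycle, formed the largest role. Of 26 tested, 2 rose, 3 fell and 21 were not called (median -0.0063), beside 14.0% of all features that rose and 15.0% that fell. Dnajb1, the main partner of Hsp70 in the heat shock response, was at -0.15, -0.070 and -0.089 (Cy5) and at -0.45, -0.37 and -0.28 (Cy3). All lay below 0, with the Cy3 arrays lower. It fell to -0.24 ± 0.060 (limma adjusted p = 0.00647), but not on the Cy5 arrays alone (-0.10, limma adjusted p = 0.285) or with the set as a fixed replicate block (0.104). Dnaja1, another cytosolic partner of Hsp70, was at 0.058 ± 0.094 and not called.

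The other called J proteins had small changes. Dnajb4, a relative of Dnajb1, rose by 0.23 ± 0.11 (limma adjusted p = 0.0159). Its arrays ran from 0.0029 to 0.30, and only 1 of its probes was called (0.26, against 0.20). Dnajc5, the cysteine-string protein of secretory vesicles, ran from 0.084 to 0.33 and rose by 0.18 ± 0.062 (limma adjusted p = 0.0201). Dnajc12 ran from -0.45 to -0.012 and fell to -0.19 ± 0.062 (limma adjusted p = 0.0177). Dnajc28 fell to -0.19 ± 0.021 (limma adjusted p = 0.0125) although its arrays ran from -0.45 to 0.075, since opposite deviations within a set averaged out. With the 6 arrays counted as separate samples, Dnajc12 and Dnajc28 were not called (limma adjusted p = 0.0874 and 0.0943). Leaving out set 1 ended the calls of Dnajb4 (limma adjusted p = 0.0587), Dnajc5 (0.0516) and Dnajc12 (0.0795). So did leaving out set 2 for Dnajc5 (limma adjusted p = 0.125) and Dnajc12 (0.0762), and set 3 for Dnajb4 (0.0839).

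**Figure D4:**
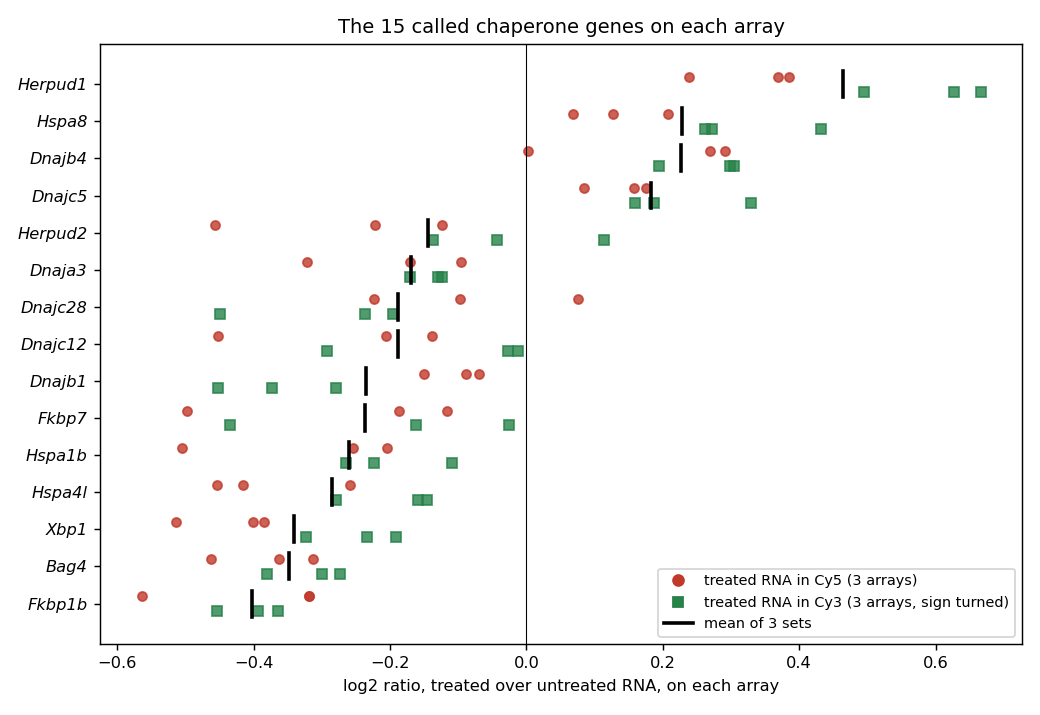
Log2 ratio (treated over untreated RNA, horizontal axis) of each called chaperone gene on each of the 6 arrays: red circles for treated RNA in Cy5, green squares for treated RNA in Cy3 after turning the sign, black bars for the mean of 3 sets. Of the 15 genes, 13 lie on 1 side of 0 on every array; Dnajc28 and Herpud2 each have 1 array on the other side.

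Among J proteins not called, Dnaja2, which recycles Hsp70 substrates in the cytosol, averaged 0.0085 ± 0.024 over probes that moved in opposite directions. One was at -0.19 (limma adjusted p = 0.0145) and the other at 0.21 (limma adjusted p = 0.0131), each with the same sign on all 6 arrays, and it was the 1 gene of 18 with several complete probes for which this happened. Dnajb6, which suppresses aggregation, was just outside the threshold at 0.14 ± 0.065 (limma adjusted p = 0.0519), with probes at 0.040 and 0.25, the second called. Without set 3 it was called (0.18, limma adjusted p = 0.0448). Dnajc7, which binds both Hsp70 and Hsp90, was at -0.20 ± 0.26 (limma adjusted p = 0.144), with set 1 at -0.49 and the others at -0.042 and -0.060. Without set 2 Dnajc7 was called lower (-0.28, limma adjusted p = 0.00278), a p that hardly reflects its own spread, as for Pdia3. Dnajb5, Dnajb8 and Dnajc14 were measured in 2 sets, with means of 0.12, -0.029 and -0.057, and none was called when such genes were admitted to the fit.

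The chaperonin CCT, a ring that folds actin and tubulin, was represented by 7 tested genes. All 7 means were above 0 but none was called (0 in limma, and 0 at an unadjusted p below 0.05), with values between 0.025 (Cct7) and 0.079 (Cct4). Over all features 29.0% were called and 38.4% had an unadjusted p below 0.05. Cct4 was called higher on the Cy3 arrays alone (0.24, limma adjusted p = 0.0407). Tcp1, its first subunit, was at 0.029 ± 0.042. Cct6b, a testis form, was at 0.063 ± 0.10 with arrays from -0.70 to 0.66. Cct2 and Cct3 were measured in 2 sets, at 0.058 and 0.19, and Cct3 was called higher by limma when such genes were admitted (adjusted p = 0.0452). Prefoldin, which hands unfolded actin and tubulin to CCT, had 4 tested subunits between -0.082 (Pfdn1) and 0.066 (Pfdn5). None was called by limma, and 0 had an unadjusted p below 0.05.

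Of 4 mitochondrial chaperones tested, 1 fell and 0 rose, beside 15.0% of all features that fell and 14.0% that rose. Dnaja3, the J protein of the matrix, ran from -0.32 to -0.096 over the arrays and fell to -0.17 ± 0.070 (limma adjusted p = 0.0303). That call ended without set 1 (limma adjusted p = 0.0762) and without set 3 (0.103). It also ended on either dye orientation alone (limma adjusted p = 0.130 in Cy5 and 0.134 in Cy3). The same held with the set as a fixed replicate block (limma adjusted p = 0.0889) and with exact zeros kept (0.0825). Hspa9, the partner of Dnaja3, was at 0.076 ± 0.11. The matrix chaperonin genes Hspd1 (Hsp60) and Hspe1 (Hsp10) were at -0.047 ± 0.085 and -0.023 ± 0.087. These genes lie head to head and share a promoter with overlapping heat shock elements. The heat shock element, searched as GAA, TTC and GAA, or TTC, GAA and TTC, each 2 bases apart, was in 6 of the 104 promoters (0.603% of all), from 4 genes: Hspd1, Hspe1, Dnajb6 and Hsph1. None of the 4 was called (-0.070 to 0.14), beside 29.0% of all features. They are shown with 5 bases on either side, fewer where the window ended, and the matched letters in capitals. Hspd1 is read from the opposite strand of the run shown.
Hspd1 and Hspe1, chr1:55088054-55088081 (+): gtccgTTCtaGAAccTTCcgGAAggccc
Dnajb6, chr5:29735847-29735869 (+): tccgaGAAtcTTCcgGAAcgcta
Hsph1, chr5:149636287-149636305 (-): gcagaTTCtgGAAagTTCt

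No small heat shock protein was called by limma (0 of 6, beside 29.0% of all features). An unadjusted p below 0.05 was found for 0 of the 6, beside 38.4% of all features. Small heat shock proteins bind unfolded chains without using ATP. Hspb1 (Hsp25) was at -1.99, 0.010 and -0.26 on the Cy5 arrays and at 1.76, 0.40 and 0.0031 on the Cy3 arrays. Both arrays of set 1 were far from 0 in opposite directions and cancelled, so that the mean was -0.012 ± 0.19 (limma adjusted p = 0.922). The widest of the others was Hspb9, a testis form, at 0.14 ± 0.26. Without set 2 it was called higher (0.26, limma adjusted p = 0.00375), again with a p that hardly reflects its own spread (0.12 and 0.40 in sets 1 and 3). Hspb7 was at 0.11 ± 0.097 and was called without set 3 (0.17, limma adjusted p = 0.0497).

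Of 6 co-chaperones tested, 1 fell and 0 rose, beside 15.0% of all features that fell and 14.0% that rose. Bag4, which restrains death receptors as well as binding Hsp70, was at -0.31, -0.46 and -0.36 (Cy5) and at -0.30, -0.38 and -0.27 (Cy3). The orientations overlapped and all values were below 0. It fell to -0.35 ± 0.063 (limma adjusted p = 0.00102), past the threshold under all 13 alternative settings run for it. Among the 13 is a filter that keeps only features with the same sign in both orientations of every set. That filter selects on the ratios themselves and could hardly end a call. Bag3, a stress-induced partner of Hsp70 in selective autophagy, was at -0.011 ± 0.10, Bag1 at 0.10 ± 0.071 and Bag6 at 0.13 ± 0.21, none of them called. Without set 3 Bag6 was called higher (0.25, limma adjusted p = 0.0163). Stip1, which bridges Hsp70 and Hsp90, was at 0.10 ± 0.062 (limma adjusted p = 0.137), with 1 probe called at 0.21 and the other at -0.0035. Its arrays were at -0.11, -0.39 and -0.11 in Cy5 and at 0.28, 0.74 and 0.22 in Cy3.

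The immunophilins, peptidyl-prolyl isomerases that bind FK506, had 2 falls and 0 rises among 10, with a median of -0.097. Falls made up 15.0% and rises 14.0% of all features. Fkbp1b, a small isomerase that stabilises calcium release channels, had the largest fall of all chaperone genes. It was at -0.32, -0.56 and -0.32 (Cy5) and at -0.36, -0.45 and -0.39 (Cy3), all below 0 and overlapping between orientations. The mean was -0.40 ± 0.092 (limma adjusted p = 8.01e-04), past the threshold under all 13 alternative settings run for it. These include the same-sign filter, which could hardly end a call. Fkbp7, an ER isomerase, ran from -0.50 to -0.026 and fell to -0.24 ± 0.088 (limma adjusted p = 0.0093). That call ended with the set as a fixed replicate block (limma adjusted p = 0.128), on either dye orientation alone (0.122 in Cy5 and 0.179 in Cy3) and with exact zeros kept (0.0667). Fkbp2, also of the ER, had all 6 arrays below 0 but missed the threshold at -0.13 ± 0.044 (limma adjusted p = 0.0591).

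Neither Hsp90-bound immunophilin of steroid receptor complexes was called. Fkbp5, a target of glucocorticoids, was at 0.018, 0.092 and 0.038 on the Cy5 arrays and at -0.24, -0.39 and -0.26 on the Cy3 arrays, with no overlap, and averaged -0.12 ± 0.022 (limma adjusted p = 0.0663). It was called lower on the Cy3 arrays alone (-0.29, limma adjusted p = 0.0308) and with exact zeros kept (0.0339). Fkbp4 was at -0.080 ± 0.037. Fkbp1a, the main target of FK506 in lymphocytes, was at 0.084 ± 0.051.

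Partners of the cytosolic and mitochondrial chaperones that carry other symbols, from a list of 32 of which 26 were tested, had 3 rises and 4 falls (median -0.0071). The shares over all features, 14.0% higher and 15.0% lower, were close to these. The Hsp90 co-chaperones Cdc37, which brings kinases (0.21 ± 0.039), Ptges3 (0.19 ± 0.045) and Chordc1 (0.18 ± 0.10) rose. The prefoldin-like Uri1 fell to -0.32 ± 0.048, Stub1, the ubiquitin ligase that acts on Hsp70 clients, to -0.24 ± 0.080, the mitochondrial unfoldase gene Clpx to -0.16 ± 0.032 and Cdc37l1 to -0.14 ± 0.032. Limma adjusted p for these 7 genes ran from 0.00125 (Uri1) to 0.0462 (Cdc37l1).

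The dye orientations differed for many uncalled genes. For 53 of the 86 (61.6%, against 49.3% of all features) the orientation means had opposite signs, and for 17 (19.8%, against 13.0%) every Cy5 array was opposite in sign to every Cy3 array. None of the 15 called genes was among the 53. The test averages both orientations, so opposed means draw a gene toward 0 and make a call unlikely. The lack of overlap therefore does not show that the calls are free of dye effects. The strongest contrast after Hspb1 was that of Fkbp8, an anchor protein of the mitochondrial outer membrane, at -0.31 in Cy5 and 0.39 in Cy3. It came from 1 of its 2 probes, at -0.91, -0.69 and -0.72 in Cy5 and 0.78, 0.82 and 0.40 in Cy3. The other probe was above 0 on all 6 arrays (0.079 to 0.26). In limma's test of the dye effect 0 chaperone genes passed (0% of all features did, and the smallest adjusted p among chaperone genes was 0.166), although 28 had an unadjusted p below 0.05 (32.6%, against 23.1% of all features). With no replicate block 2 passed, Fkbp8 (limma adjusted p = 0.0266) and Hspb3 (0.0451). How far dye differences touch the small treatment ratios of single genes was not tested beyond this.

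**Figure D5:**
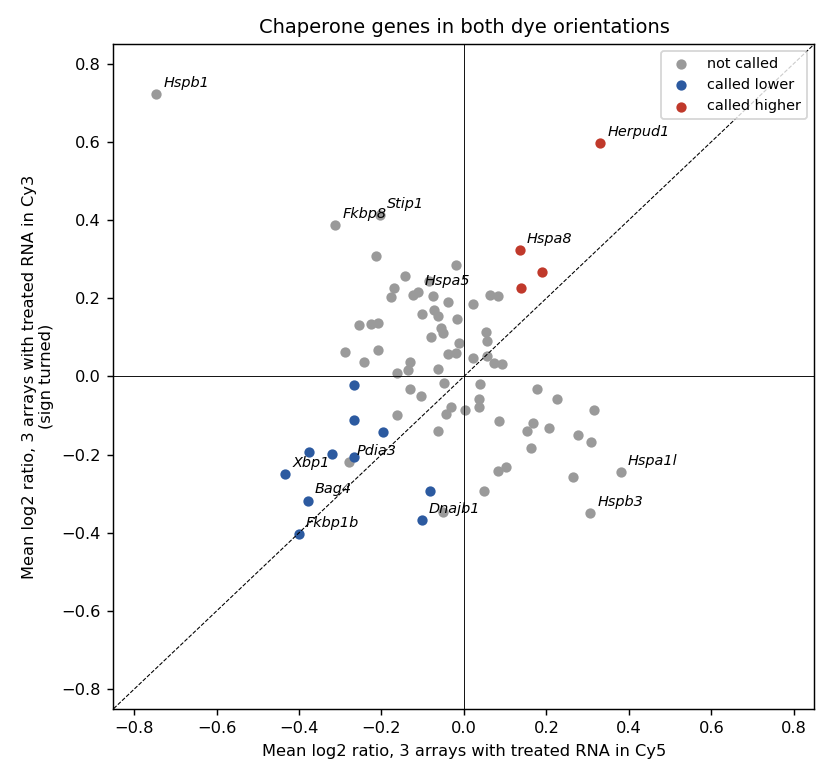
Mean log2 ratio (treated over untreated RNA) of each of the 86 chaperone genes over the 3 arrays with treated RNA in Cy5 (horizontal axis) and the 3 with treated RNA in Cy3, sign turned (vertical axis); the dashed line marks equal values and colours mark the call. Called genes lie where both means share a sign, which a test on the average of both favours. Many grey genes, with Hspb1 (-0.75 and 0.72) as the extreme, lie where the means have opposite signs.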

How the data were processed

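Total RNA of treated and untreated RAW 264.7 cells was compared on 6 two-colour arrays, per the labels. Each array's deposited column holds log2 ratios of both dyes. As to the scanner, background correction and normalization, the authors' steps are not given in the sources used here, and the value table holds no intensities, so the compression of ratios at dim spots is unknown. Exact zeros were taken as not measured, and only probes complete over the 6 arrays (13415) entered the test. Symbols came from the platform annotation (13738 probes with 1 symbol, 52 with several, 2491 with none listed). Entrez IDs of all 95 chaperone genes matched the RefSeq table. Probes of 1 gene were averaged, which gave 11364 features.

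Set values were tested against 0 with limma 3.58.1 in R 4.3.3 (lmFit and eBayes, two-sided), after tests on simulated data. The dye effect was tested on the unturned means. Counting a set as 1 replicate is an assumption, since no label states that its arrays share RNA. Roles, lists and settings were written with earlier results of these data known. Genes were named by a rule: a list of well-known chaperones, the 12 largest called rises and falls, up to 3 called and 2 uncalled genes per role, genes with opposed probes, and incompletely measured genes. Others named were chosen after their values were seen. Motifs were chosen after the values were seen. The alternatives covered the set number, centring, quantile normalization, dye orientation, each set left out, filters, zeros and single probes. With a set left out each gene keeps 2 values, so limma's p then leans mostly on the spread pooled over features. Sequences are RefSeq's.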

Additional observations from a re-analysis of the deposited data

How the results depend on the processing

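The counts of 4 rises and 11 falls were recomputed under 14 alternative settings. The number of rises was 2 with the set number as a fixed replicate block, 1 on the arrays with treated RNA in Cy5 alone, 7 on those with treated RNA in Cy3 alone and 1 with exact zeros kept, and ran from 2 (without set 1) to 7 (without set 3) when a set was left out. Over all features the rises went from 1586 to 904, 931, 1303 and 1212 under the same first 4 settings, and to between 1271 and 1479 without a set. The number of falls was 5 with the fixed block, 5 on the Cy5 arrays alone and 7 with exact zeros kept, and ran from 8 to 11 when a set was left out. Over all features the falls went from 1708 to 848, 894 and 1219, and to between 1347 and 1464 without a set. With no replicate block the counts were 4 and 8, and with a random replicate block 5 and 12. Arrays of the same set number deviated from their orientation means in opposite directions or not at all together (r across features of -0.48, -0.51 and -0.020 for sets 1 to 3), whereas set 1 in Cy5 correlated with set 2 in Cy3 (0.45) and set 2 in Cy5 with set 1 in Cy3 (0.53). These r are for ratios after the sign was turned, and turning it reverses the sign of r. In the ratios as deposited, the arrays of sets 1 and 2 therefore deviated together. Whether the arrays of a set share RNA is not settled by these values or by the labels. The dye effect was called for 2 genes with no replicate block against 0. Of the called genes Hspa1b changed sign, at 0.022 with exact zeros kept. Of the 39 uncalled genes recomputed, 28 changed sign under some setting, past the threshold only for Dnaja2, at -0.19 by 1 of its probes. Among the 15 called genes, 52 of 199 recomputed values lost the call, and Bag4, Fkbp1b and Xbp1 kept it in all that were run. The 199 include 13 values from the filter for the same sign in both orientations of every set. That filter selects on the ratios themselves, so it could hardly end a call. Among uncalled genes 19 of 496 values, from 13 genes, passed the threshold. The causes were not tested. The number of arrays limits the precision.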
